A study of Mus musculus with 109 samples.

Results

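Olig1, Olig2, Pdgfra and Mbp are genes of the oligodendrocyte lineage, and their counts were followed cell by cell in a preparation of cerebellar granule cell progenitors (GCPs). They were taken by symbol as 4 of the 15973 genes listed in the raw count table, and all 4 were listed. Counts were expressed as CPM, that is the count divided by the total of the cell and multiplied by 1000000. A count of 1 to 5 was called low, and a value of 100 CPM or more was called high. At the median total, 100 CPM stood for 360 counts.

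The study asked how GCPs of the postnatal mouse cerebellum come to differ from each other in Notch signaling. Cells of the mouse cerebellum at postnatal day 7, of strain C57BL/6 per the labels, were isolated on a Percoll density gradient and captured on 96-well chips of the C1 Fluidigm system, which holds single cells in separate wells. Each of 109 wells then gave its own Smart-seq library, with no transgene, treatment or genotype contrast among them. The methods of the study name ICR pups without tying them to these cells, so the strain rests on the labels. The labels call all of these samples granule precursor cells and divide them into 6 library groups of 18 or 19 cells. No animal or culture was named, so cells were not counted as replicates, and no test between conditions was possible. A cell is called here by its library group and its number within the group.

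Oligodendrocyte progenitors are glial precursor cells that carry the receptor PDGFRA on their surface and divide in response to platelet-derived growth factor. The basic helix-loop-helix (bHLH) factors OLIG1 and OLIG2, together with SOX10, direct these cells towards oligodendrocytes, which wrap axons in myelin. Myelin basic protein, encoded by Mbp, compacts the myelin membrane, and in the cerebellum myelin forms in the white matter after birth. Granule neurons belong to a different lineage, in which the bHLH factor NEUROD1 drives differentiation and the zinc finger factor ZIC1 is present from the progenitor onward.

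Olig1 and Olig2 are neighbours on chromosome 16 of mouse build GRCm38 (the assembly also called mm10), on the plus strand. Olig2 spans chr16:91225457-91228677 with 2 exons, and Olig1 spans chr16:91269772-91271933 with 1 exon, 41094 bases further on. Pdgfra spans chr5:75152292-75198215 on the same strand. OLIG1, OLIG2 and NEUROD1 are bHLH factors, a class that binds the E-box, CANNTG, so the promoter windows were searched for it on both strands, which is the same search because the motif reads alike on each. The windows below come from RefSeq on GRCm38.p6, run from 250 bases before the start site to 50 bases after it, and are shown for the 2 members present in that table. Capitals mark the E-box.

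Olig2, chr16:91225300-91225599: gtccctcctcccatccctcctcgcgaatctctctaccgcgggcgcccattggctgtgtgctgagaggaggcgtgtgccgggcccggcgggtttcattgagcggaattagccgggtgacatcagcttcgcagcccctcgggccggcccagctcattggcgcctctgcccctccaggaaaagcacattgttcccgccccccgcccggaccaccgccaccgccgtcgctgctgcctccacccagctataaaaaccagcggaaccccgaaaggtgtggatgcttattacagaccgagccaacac
Pdgfra, chr5:75152001-75152300: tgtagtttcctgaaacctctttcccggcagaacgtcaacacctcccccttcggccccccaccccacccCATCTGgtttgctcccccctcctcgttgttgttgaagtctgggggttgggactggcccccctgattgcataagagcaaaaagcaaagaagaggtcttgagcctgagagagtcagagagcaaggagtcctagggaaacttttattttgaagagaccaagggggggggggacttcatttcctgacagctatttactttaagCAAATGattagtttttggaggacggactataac

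The Pdgfra window held 2 E-boxes and the Olig2 window held 0. Of 32851 promoter windows in the table, 72.3% held at least 1 and 39.6% held at least 2, so the motif is common and its presence describes the letters of the window only.

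Total counts per cell ran from 15071 to 8616017 (median 3604792), and all but the shallowest cell had at least 1110182. The libraries carry no molecular identifiers, so the intervals and limits given here cover counting error only. A median of 4312 genes was detected per cell. In 2 wells, cell 18 of library group 3 (13533 genes) and cell 18 of library group 6 (12684 genes), far more genes were detected than in the remaining cells, which reached 6420 at most. These wells are called the deep wells, and results that rest on them are given with and without them. Genes of the labelled cell type were high in most wells, Neurod1 in 101 of 109 cells and Zic1 in 75.

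All members were present at high levels in a minority of cells. Olig1 was high in 3 cells (2.75%, Wilson 95% interval 0.940 to 7.78), and Olig2 was high in 2 (1.83%, 0.505 to 6.44). Pdgfra was high in 19 cells (17.4%, 11.5 to 25.6) and Mbp in 20 (18.3%, 12.2 to 26.6). The latter became 17 and 18 without the deep wells. With TMMwsp scaling of the library sizes, which trims extreme genes before the cells are compared, 1 cell had high Olig2 and 14 had high Pdgfra. Across all listed genes, 51.8% were high in at least as many cells as Olig1, 59.3% as Olig2, 11.8% as Pdgfra and 11.01% as Mbp. The members thus ranked differently, with the Olig genes near the middle of the table and Pdgfra and Mbp among the more often high genes.

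Detection alone gave another picture, because most cells with a count of a member had only a few. Olig1 had any count in 19 cells, of which 12 were low, 4 lay between the classes and 3 were high. Olig2 had any count in 14 cells, with 6 low, 6 between and 2 high. Pdgfra had any count in 85 cells, with 48 low, 18 between and 19 high. Mbp had any count in 86 cells, with 46 low, 20 between and 20 high. Low cells were numerous, but they held 0.140% (Olig1), 0.187% (Olig2), 0.302% (Pdgfra) and 0.0977% (Mbp) of the CPM summed over all cells. High cells held 97.2%, 91.6%, 98.4% and 99.4% of it. The small shares of the low cells follow in part from how the classes were defined.

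Low and high cells lie apart in level by definition, so the values next to the threshold are given here. The lowest high cells had 212 CPM of Olig1, 121 of Olig2, 101 of Pdgfra and 102 of Mbp, whereas the nearest cells under the threshold had 66.2, 54.8, 79.8 and 26.7 CPM. Low cells had medians of 0.342, 0.519, 0.505 and 0.486 CPM. In the shallowest cell, a single Pdgfra read amounted to 66.4 CPM, and the highest low value of Pdgfra elsewhere was 4.50 CPM. For Pdgfra the values around the threshold were close together, and 12 cells remained at 200 CPM or more.

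**Figure D1:**
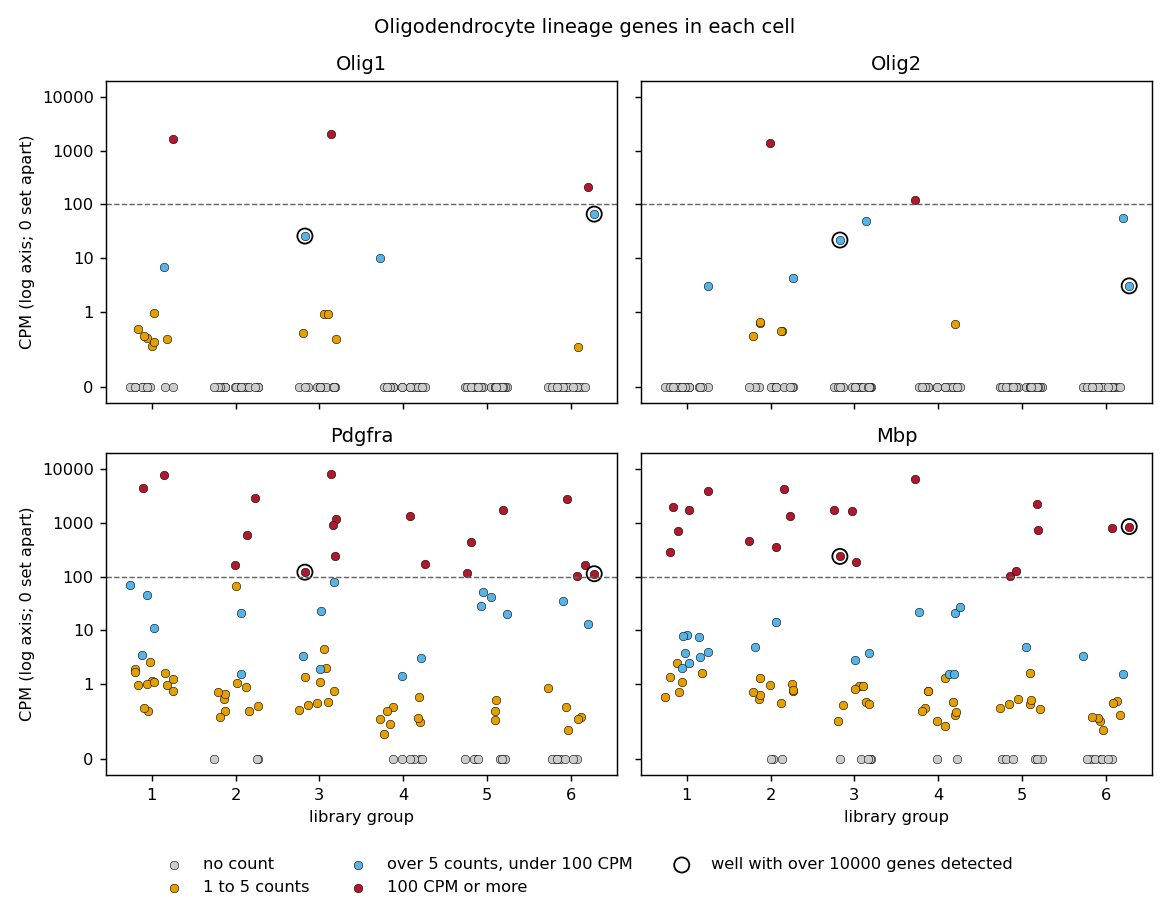
CPM of Olig1, Olig2, Pdgfra and Mbp in each of 109 cells (points), by library group on the x axis; the y axis is logarithmic, cells without a count are set at the bottom, and the dashed line marks 100 CPM. Olig1 and Olig2 reach 100 CPM in 3 and 2 cells, while Pdgfra and Mbp do so in 19 and 20 cells spread over all 6 library groups.

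Olig1 counts were concentrated in a pair of cells. Cell 11 of library group 3 had 8735 counts (2045 CPM) and cell 4 of library group 1 had 5440 (1676 CPM). Cell 12 of library group 6 followed with 817 counts (212 CPM). Below the threshold, the deep wells had 523 counts (66.2 CPM, library group 6) and 178 counts (25.8 CPM, library group 3). Cell 7 of library group 4 had 45 counts, and cell 11 of library group 1 had 17. The remaining 12 cells with Olig1 had 1 to 3 counts each, and 9 of them had exactly 1. An antisense transcript, Gm15966, overlaps the Olig1 exon, and since the strand setting of the counting is not known here, reads of either could not be told apart.

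Olig2 was led by a different cell. Cell 4 of library group 2 had 2889 counts (1391 CPM), which was 84.3% of the Olig2 CPM summed over all cells. Cell 7 of library group 4 had 534 counts (121 CPM), cell 12 of library group 6 had 211 (54.8 CPM) and cell 11 of library group 3 had 210 (49.2 CPM). The deep wells had 150 and 24 counts, cell 11 of library group 2 had 11, and cell 4 of library group 1 had 10. The remaining 6 cells had 1 to 3 counts. No cell was high for both Olig1 and Olig2. Of the 7 cells with more than 5 Olig1 counts, 6 also had more than 5 Olig2 counts, or 4 without the deep wells. The exception was cell 11 of library group 1, with 17 and 0 counts. Over all 109 cells, 8 had more than 5 Olig2 counts. Cell 4 of library group 2, the leading Olig2 cell, had 0 Olig1 counts.

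Pdgfra, the receptor of the progenitor stage, was high in every library group, in 2 to 5 cells of each. Over its 19 high cells it had a median of 592 CPM and reached 8132 CPM in cell 11 of library group 3. Cell 11 of library group 1 had 7716 CPM, and cell 5 of the same group had 4583. These were the highest values, and the other high cells ran from 101 to 2914 CPM. The gene overlaps 2 transcripts on the opposite strand, Gm42802 and Gm42803.

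Mbp, the myelin gene, was likewise high in every library group, in 1 to 5 cells of each. The gene spans chr18:82475146-82585637 on the plus strand of GRCm38. Over its 20 high cells it had a median of 837 CPM. It reached 6576 CPM in cell 7 of library group 4, followed by 4244 CPM in cell 15 of library group 2 and 3962 CPM in cell 2 of library group 1. Of 16 annotated Mbp transcripts, 4 start at the upstream end of the gene, where the golli forms begin, and 12 start at least 79324 bases downstream, where the forms of classic myelin basic protein begin. Golli forms are known from neurons as well as from oligodendrocytes. Counts were made per gene, so the forms could not be told apart here.

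The members shared a cell at the high level in 9 of 109 cells. Of the 109, 74 had no high member, 26 had 1 and 9 had 2, and no cell had 3 or 4. The pair of Pdgfra and Mbp accounted for 6 of these 9 cells, or 4 without the deep wells. Pdgfra was high in 6 of the 20 cells with high Mbp (30.0%, Wilson 95% interval 14.5 to 51.9). Among the 89 others it was high in 13 (14.6%, 8.74 to 23.4), and the intervals overlap. Without the deep wells and the shallowest cell, it was high in 4 of 18 (22.2%) and in 13 of 88 (14.8%). These intervals overlap as well. Over all cells, the 6 cells with both genes high were 31.6% of those with high Pdgfra. Olig1 with Olig2 and Olig1 with Mbp occurred in 0 cells. The remaining pairs occurred in a single cell each. They were Olig1 with Pdgfra in cell 11 of library group 3, Olig2 with Mbp in cell 7 of library group 4, and Olig2 with Pdgfra in cell 4 of library group 2. Olig1 was high without another member in 2 cells, Pdgfra in 11 and Mbp in 13. A threshold of 200 CPM left 4 cells with 2 members, and TMMwsp scaling left 5.

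With a lower bar the members shared more cells. At more than 5 counts, 46 cells had none, 44 had 1, 12 had 2, 4 had 3 and 3 had all 4 members, of which 2 were the deep wells. At any count, 10 cells had none, 25 had 1, 49 had 2, 19 had 3 and 6 had all 4. Over 109 cells, Pearson's r of log2(CPM + 1) was 0.57 between Olig1 and Olig2 (Spearman's rho 0.33; r was 0.53 in the 106 cells without the deep wells and the shallowest cell), and at most 0.24 for every other pair of members. Cells of a library group share their processing, so these are descriptions and carry no p-value.

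Of the 35 cells with a high member, 3 carried a wider set of oligodendrocyte genes. They were found by counting high genes of a list of 12 progenitor genes, of which 11 were listed. Cell 11 of library group 3, cell 4 of library group 1 and cell 7 of library group 4 each had 6 to 8 of the 11 at 100 CPM or more, while no other cell had more than 3. These 3 cells were 2.75% of all cells (Wilson 95% interval 0.940 to 7.78). The count of 5 or more genes that sets them apart was chosen after the values were seen.

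Cell 11 of library group 3 had Olig1 and Pdgfra with other genes of the progenitor stage. Of the 11 progenitor genes 8 were high, against 5.71% of all listed genes in this cell. Sox10, the transcription factor that works with OLIG2, had 2001 CPM, and Cspg4, which encodes the surface proteoglycan NG2, had 1802 CPM. Gpr17, a receptor of progenitors about to differentiate, had 3905 CPM, and the receptor phosphatase gene Ptprz1 had 2008 CPM. Sox8, a relative of Sox10, had 736 CPM and the homeobox gene Nkx2-2 had 286 CPM. Of 14 listed myelin genes 0 were high, and Mbp had 2 counts (0.468 CPM). Scaled to exon length, Olig1 stood at 946 CPM per kb and Pdgfra at 811, so the order of the pair in this cell turned round from that of the CPM values. Cspg4 was high in this cell and in no other.

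Cell 4 of library group 1 had Olig1 with genes of a later stage. Of the progenitor genes 6 of 11 were high and of the myelin genes 7 of 14, against 8.56% of all listed genes. Gpr17 had 5321 CPM and Sox10 had 1700 CPM, but Cspg4 had 0 counts and Pdgfra had 4 (1.23 CPM). Enpp6, a phosphodiesterase gene of newly formed oligodendrocytes, had 7239 CPM, and Cnp, which encodes an enzyme of myelin membranes, had 9332 CPM. Bcas1, a gene of early myelinating cells, had 2933 CPM. Mbp nevertheless had 13 counts, and Mag, Mog and Mobp had 0.

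Cell 7 of library group 4 had the most Mbp of any cell, with 29124 counts (6576 CPM, or 776 CPM per kb). Of the progenitor genes 8 of 11 were high and of the myelin genes 7 of 14, against 11.4% of all listed genes. Ugt8a, which encodes the enzyme that makes galactolipids of myelin, had 8917 CPM, Cnp had 6345 CPM and Enpp6 had 5742 CPM. Gpr17 had 3659 CPM and Sox10 had 433 CPM. Mog and Mobp had 0 counts, and Pdgfra had 1. In this cell Olig2, at 121 CPM, was above Olig1, at 10.2 CPM, and the order was the same per kb (47.7 against 4.70).

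These 3 cells differed in which member they held. Gpr17, Sox10, Ptprz1 and Sox8 were high in all of them, while Pdgfra and Mbp were each high in 1 of the 3, and Enpp6, Cnp, Bcas1, Ugt8a, Myrf and Sirt2 were high in both cells other than cell 11 of library group 3. Fabp7, a fatty acid binding protein gene listed here with astroglia, was also high in all 3, with 930, 1069 and 108 CPM.

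The other pair of cells with a high Olig gene lacked Sox10. Cell 12 of library group 6 (Olig1 212 CPM) had 9 of 12 astroglial genes high, against 7.93% of all listed genes. Aqp4, the water channel of astrocytes, had 20295 CPM, Sparcl1 had 10539 CPM and the gap junction gene Gja1 had 6633 CPM. Sox10 and Cspg4 had 0 counts, Gpr17 had 1, and of the progenitor genes only Ptprz1 and Cacng4 were high. Olig2 stood at 54.8 CPM there, and Pdgfra had 50 counts (12.98 CPM).

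Cell 4 of library group 2 (Olig2 1391 CPM, Pdgfra 166 CPM) had 5 of 11 granule lineage genes high, against 5.85% of all listed genes. Neurod1 had 1352 CPM, Dcx, a microtubule protein gene of young neurons, had 1048 CPM and Zic1 had 450.1 CPM. Of the progenitor genes Vcan alone was high, at 361 CPM, a gene that was high in 42 of the 109 cells. Sox10, Cspg4, Gpr17, Nkx2-2 and Ptprz1 all had 0 counts. The cell with the most Olig2 thus carried granule lineage genes without Sox10, Cspg4 or Gpr17.

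Outside these cells, most cells with high Pdgfra had no high gene of the progenitor list. Without the deep wells and the 3 cells described first, 16 cells had high Pdgfra. Of these, 10 had no high gene of the progenitor list, against 43 of the 88 cells without high Pdgfra. Sox10 had 0 counts in 14 of the 16 and reached 5.53 CPM at most, and Cspg4 likewise had 0 counts in 14. The number of high progenitor genes per cell ran from 0 to 2 with a median of 0, and the summed level of the list had a median of 29.2 CPM, against 165 CPM in the 88 cells without high Pdgfra. Pdgfra is also known from fibroblasts. The 4 listed genes of mural cells and fibroblasts summed to 0 to 32.3 CPM in the 16 cells (median 0) and to 0 to 105 CPM in the 88 (median 0). Among the 16, Col1a1 had 0 counts in 15 and 32.3 CPM in the other, Col1a2 had 0 counts in 15 and 0.263 CPM in the other, and Col3a1 had 0 counts in all. Their part in the Pdgfra levels was not tested. Of 11 granule lineage genes a median of 5 was high (range 2 to 9). Per cell, 4.43% to 15.8% of all listed genes were high, with a median of 6.74%. Cell 11 of library group 1, with Pdgfra at 7716 CPM (770 CPM per kb, against 811 in cell 11 of library group 3), had 0 high progenitor genes and Neurod1 at 2279 CPM.

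Without the deep wells and the 3 cells, 17 cells had high Mbp. Of these, 10 had no other high gene of the myelin list, against 64 of the 87 cells without high Mbp. Sox10 had 0 counts in 13 of the 17, Mag in 16 and Mobp in 14. Mobp also had 0 counts in the 3 cells, and of these only cell 7 of library group 4 had Mag counts. Mag and Mobp thus do not separate the 17 from the 3. Cnp went the other way, with a Spearman's rho of 0.54 with Mbp over the 109 cells. Its highest value among the 17 was 8.99 in log2(CPM + 1), in cell 3 of library group 3. The number of high myelin genes other than Mbp ran from 0 to 2 with a median of 0, against 0 to 4 with a median of 0 in the 87. The summed level of the myelin list had a median of 22.7 CPM in the 17 cells and 8.98 CPM in the 87. A median of 6 of 11 granule lineage genes was high in the 17 and in the 87 alike. Cell 2 of library group 3 came closest to the oligodendrocyte pattern among them. There Mbp had 1710 CPM, Sox10 175 CPM, Gpr17 139 CPM and Bcas1 194 CPM, and 2 of 11 progenitor and 2 of 14 myelin genes were high, against 10.2% of all listed genes. The same cell had Zic1 at 1114 CPM and Dcx at 2326 CPM, and whether it held a single cell was not tested.

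**Figure D2:**
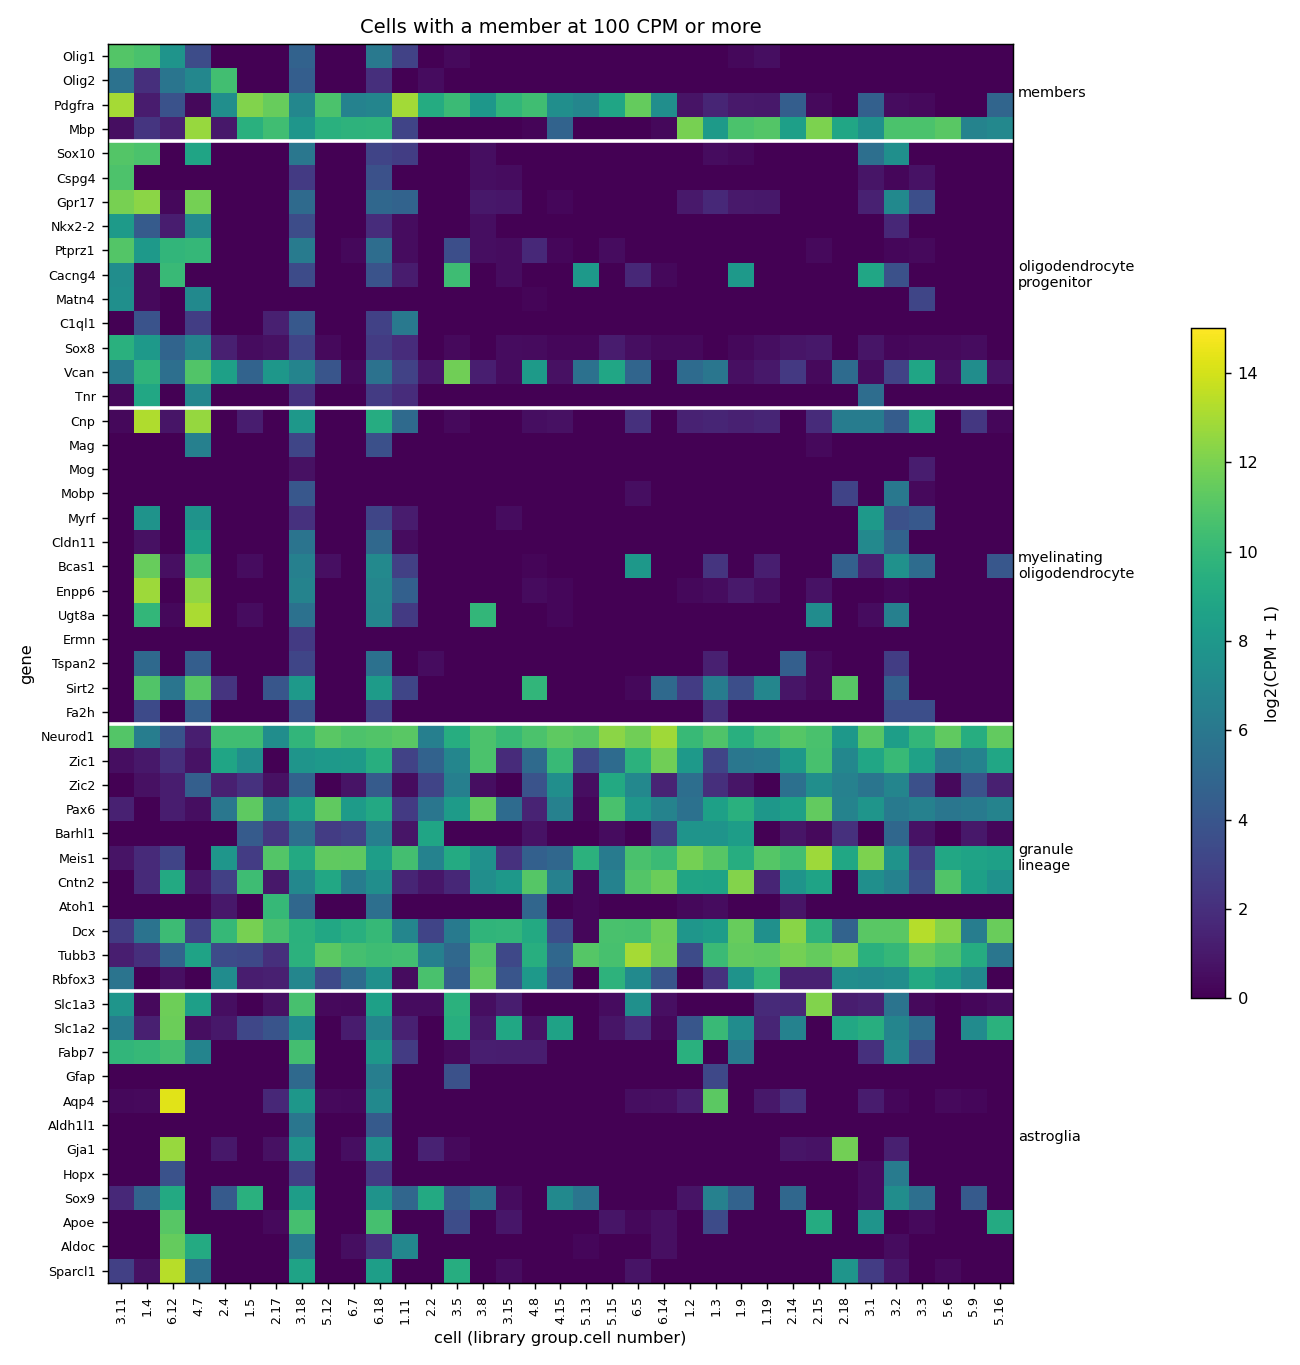
Levels of the 4 members and of 4 gene lists (rows, log2(CPM + 1) as colour) in the 35 cells with a member at 100 CPM or more (columns, named by library group and cell number). Progenitor genes such as Sox10 and Gpr17 are bright in cell 11 of library group 3, cell 4 of library group 1 and cell 7 of library group 4, while most cells with Pdgfra or Mbp show granule lineage genes instead.

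The deep wells carried genes of nearly every list. In cell 18 of library group 6, Mbp had 858 CPM, Pdgfra 113 CPM and Olig1 66.2 CPM, with 6 of 14 myelin and 8 of 11 granule lineage genes high, against 15.8% of all listed genes. In cell 18 of library group 3, Mbp had 238 CPM and Pdgfra 121 CPM, with 4 of 14 myelin and 8 of 11 granule lineage genes high, against 12.1%. Sox10 stood at 7.34 and 60.4 CPM. Microglial genes were present as well, with C1qb, a complement subunit gene, at 145 and 296 CPM. Their part in the sharing of Pdgfra and Mbp is given by the counts without them.

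Neurod1 and Zic1 are given first for the cells of the Olig genes and then for those of Pdgfra and Mbp. The sets are not distinct, because cell 11 of library group 3, cell 7 of library group 4 and cell 4 of library group 2 belong to both. Values for the Olig genes rest on 3 and 2 cells. Among the 3 cells with high Olig1, Neurod1 had 2011 CPM (cell 11 of library group 3), 81.9 CPM (cell 4 of library group 1) and 14.02 CPM (cell 12 of library group 6), and Zic1 had 0.468, 0.924 and 3.12 CPM. Zic1 was therefore below 100 CPM in all 3, and Neurod1 in 2. Among the 2 cells with high Olig2, Neurod1 had 1352 CPM in cell 4 of library group 2 and 1.35 CPM in cell 7 of library group 4, and Zic1 had 450.1 and 0.677 CPM. The 3 cells with a wide set of oligodendrocyte genes all had 3 Zic1 counts or fewer, and Neurod1 ranged in them from 6 to 8589 counts. Cell 11 of library group 3 was the only one of the 3 with high Neurod1, and of its 11 granule lineage genes no other was high.

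In cells with high Pdgfra, Neurod1 was high in 18 of 19, with a median of 1760 CPM (range 87.8 to 7356), and Zic1 in 11 of 19, with a median of 168 CPM (range 0 to 3447). In the 90 other cells the medians were 1493 CPM for Neurod1 (range 1.03 to 11611) and 313 CPM for Zic1 (range 0.677 to 7804). In cells with high Mbp, Neurod1 was high in 19 of 20, with a median of 1377 CPM (range 1.35 to 2702), and Zic1 in 14 of 20, with a median of 245 CPM (range 0 to 1586). In the 89 other cells the medians were 1660 CPM for Neurod1 (range 1.03 to 11611) and 324 CPM for Zic1 (range 0.468 to 7804). The ranges overlapped for both genes. The cells with high Mbp reached lower tops than the others, but a top tends to rise with the number of cells, here 20 against 89. Of the 29 cells with high Pdgfra or Mbp that were neither deep wells nor among the 3 cells, 28 had high Neurod1 and 18 had high Neurod1 and Zic1.

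Over all 35 cells with a high member, Neurod1 was high in 31 (median 1637 CPM) and Zic1 in 20 (median 120 CPM), and 4 had neither. In the other 74 cells, Neurod1 was high in 70 (median 1584 CPM) and Zic1 in 55 (median 366 CPM), and 1 had neither. Without library group 1, the Zic1 median of the cells with a high member was 245 CPM. Pearson's r over the 109 cells on the log2(CPM + 1) scale was -0.37 between Olig1 and Zic1 and -0.26 between Olig2 and Zic1. It was -0.23 between Olig1 and Neurod1 and -0.25 between Olig2 and Neurod1. For Mbp it was -0.08 with either gene, and for Pdgfra it was 0.09 with Neurod1 and -0.23 with Zic1. Neurod1 overlaps Cerkl on the same strand, and Zic1 overlaps Zic4 on the opposite strand, so part of their counts could belong to those genes.

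**Figure D3:**
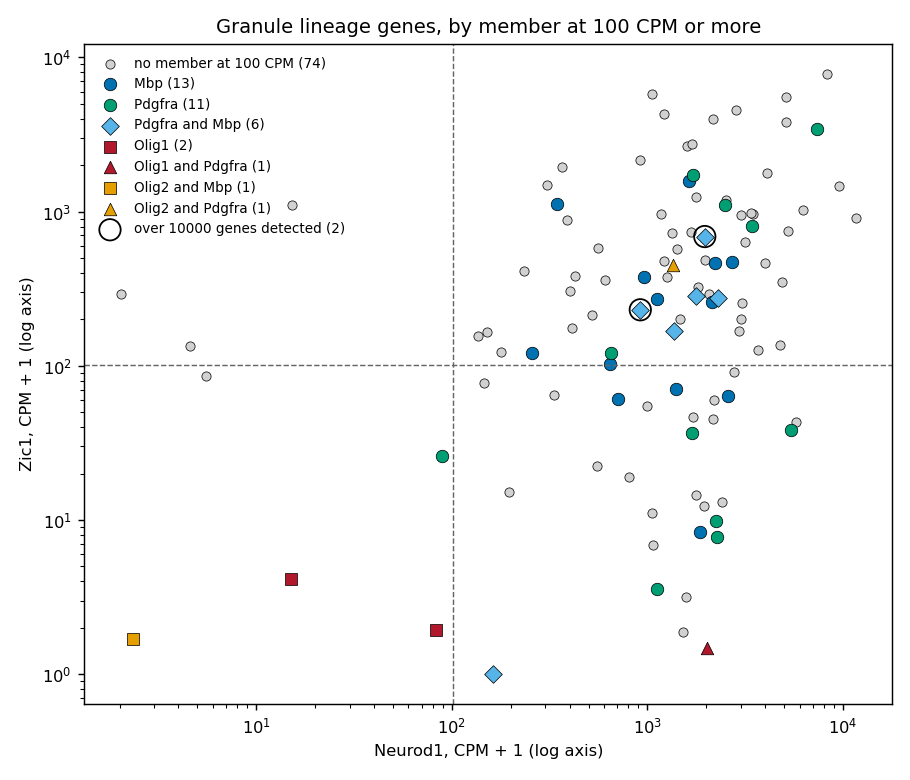
Zic1 against Neurod1 in each of 109 cells (CPM + 1, both axes logarithmic), with colour and shape giving the members at 100 CPM or more and dashed lines at 100 CPM. Most cells with high Pdgfra or Mbp lie among the others. Of the 5 cells with high Olig1 or Olig2, some of which also have high Pdgfra or Mbp, 4 lie at Zic1 values under 5 CPM.

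Low counts of the Olig genes followed the library group. All 12 low Olig1 cells belonged to library groups 1, 3 and 6, those that held a high Olig1 cell. They were 24.5% (14.6 to 38.1) of the 49 cells of these groups with 5 counts or fewer. In the other 3 groups 0 of 53 cells had a low count, which allows a share of up to 5.66%. All 6 low Olig2 cells belonged to library groups 2 and 4, which held a high Olig2 cell, at 18.2% (8.61 to 34.4) of 33 cells, against 0 of 68 elsewhere, which allows up to 4.41%. The share did not strictly follow the top count of the group, being 41.2% of 17 cells in library group 1 (top count 5440), 25.0% of 16 in library group 3 (8735) and 6.25% of 16 in library group 6 (817) for Olig1. Without library group 1, 5 low Olig1 cells remained, and without library group 2, 1 low Olig2 cell.

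Pdgfra and Mbp had high cells in every library group, and low counts were seen in every group. The share of low cells among those with 5 counts or fewer ran from 27.3% (library group 5, top count 6240) to 100% (library groups 1 and 3, top counts 19546 and 34726) for Pdgfra. For Mbp it ran from 50% (library group 6, top count 6778) to 100% (library group 1, top count 15783). The groups with the higher top counts were thus mostly those with more low cells. When all cells were thinned to 1110182 counts, the cells with any count fell from 19 to 12 for Olig1, from 14 to 11 for Olig2, from 85 to 63 for Pdgfra and from 86 to 66 for Mbp, whereas the numbers of high cells were 3, 2, 18 and 20.

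The same held for the other oligodendrocyte genes. In cell 4 of library group 1, 14 genes of the member, progenitor and myelin lists were high. In the other cells of that group counts of 1 to 5 made up 36.9% of the values of these 14 genes, against 19.02% in other groups (the deep wells and the 3 cells left out). For the 10 such genes of cell 11 of library group 3 the shares were 42.5% and 18.5%, and for the 17 of cell 7 of library group 4 they were 33.6% and 17.9%. Shares over all listed genes are not given here, so whether low counts of other genes differed likewise between the groups was not tested. Of the 14 genes of cell 4, 5 to 14 had counts in each of the 18 other cells of its group (median 8.5), against 1 to 12 in cells of other groups (median 4). The highest of the 18 was cell 11 of library group 1, which was chosen after the values were seen. In it all 14 genes had counts, at 0.113% to 0.810% (median 0.316%) of the counts in cell 4 of the group. For example, Gpr17 had 67 counts beside 17273, Cnp had 89 beside 30295 and Olig1 had 17 beside 5440. The 14 genes were picked as high in cell 4, so small percentages follow in part from that choice. Genes of these lists that were not high in cell 4 went both ways. C1ql1 had 168 counts in cell 11 beside 44, Mbp 19 beside 13 and Pdgfra 19546 beside 4, whereas Nkx2-2 had 1 beside 60. Where the reads behind the low counts came from was not tested.

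**Figure D4:**
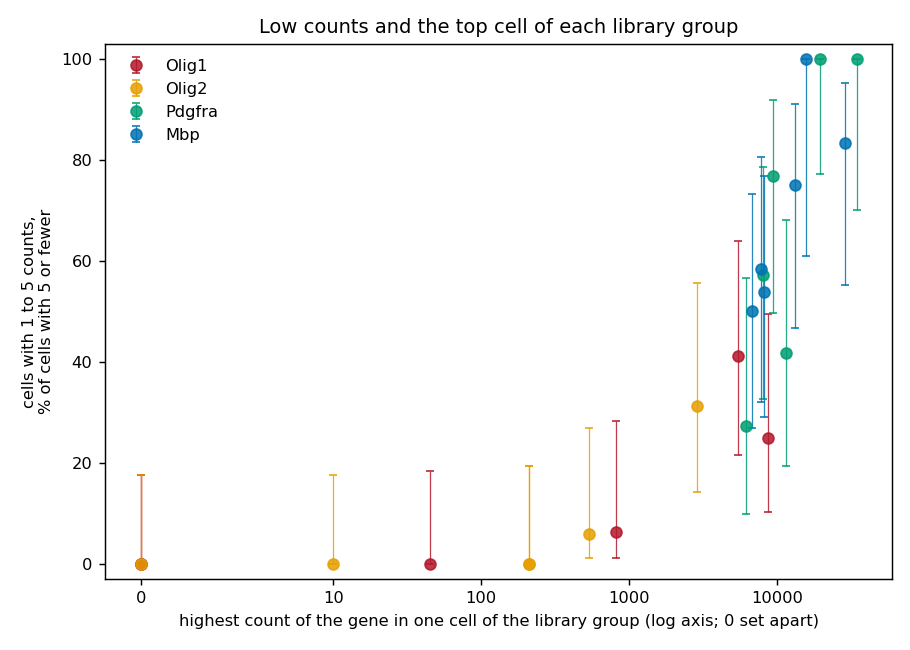
Share of cells with 1 to 5 counts among cells with 5 or fewer (y axis, percent, bars are Wilson 95% intervals) against the highest count of the gene in a cell of the same library group (x axis, logarithmic, 0 set apart), for 4 genes in 6 library groups. Groups whose top count is 211 or less have no low cell, and Pdgfra and Mbp groups lie between 27.3% and 100%.

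The genes most like each member over the 109 cells were ranked by Pearson's r of log2(CPM + 1) among 8274 genes that were high in at least 3 cells. Olig1 was closest to Sox8 (0.89), Tril (0.77), 2810468N07Rik (0.76), Sox10 (0.75) and Gpr17 (0.68), so that 3 of its 5 nearest genes were on the progenitor list. For Olig2 they were Slc25a1 (0.78), Ppp2r5a (0.71), Sox8 (0.63), Cstf1 (0.58) and Dnajb1 (0.57). Pdgfra had lower values, with Cystm1 (0.42), Tmem123 (0.41), Pltp (0.40), Stk35 (0.37) and Atp5e (0.36), and Sox10 ranked 642. Mbp was closest to Orai2 (0.46), AC164548.1 (0.44), Bzrap1 (0.43), Fbxl17 (0.42) and Fech (0.41), with the myelin gene Cnp at rank 10. Spearman's rho, which weights the few high cells less, was 0.31 for Olig1 with Sox8, 0.44 with Sox10 and 0.51 with Gpr17. The values for Olig1 and Olig2 rest largely on the 3 and 2 high cells and the few between the classes. These values are descriptions of those cells. Ppp2r5a, for example, was high in 0 of the cells with high Olig2.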

How the data were processed

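Per the labels, 109 single cells of P7 cerebella were used, and their titles gave 6 library groups. Groups were numbered in the order of the samples. Whether they are the batches of the study is not stated. According to the submitters' processing notes and the methods of the study, STAR 2.4.1d was used for alignment, with mm10 as the genome, and HTSeq-count 0.6.1 for counting. The authors deposited the raw counts per gene. The annotation and strand setting are not given in the sources used here. A listed gene had a count in at least 3 cells. No columns were identical, and all columns were used. The members and lists were chosen with earlier results of these data known.

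CPM used the column total. Shares carry Wilson 95% intervals, and a share of 0 carries the limit of 3 counts. Correlations used log2(CPM + 1). Genes named were the members, Neurod1, Zic1, genes of 11 lists and, per member, the 5 genes of highest Pearson's r. Cells were described singly if Olig1 or Olig2 was high, with the deep wells (over 10000 genes), and others were chosen after their values were seen. Gene spans and exon lengths are those of GENCODE M21. Lhfpl3, Opalin, Pdgfd, Pdgfrb, Aif1, Pecam1, Cdh5, Dcn, Lum and Pcp2 were not analysed here. A further gene of the myelin list enters the counts over that list and is not reported singly here.

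Alternatives were thresholds of 50 and 200 CPM, low classes of 1 to 2 and 1 to 10 counts, TMMwsp scaling (edgeR 4.0.16 in R 4.3.3), totals over genes seen in at least 10 cells or without the 10 top genes of a cell, thinning, and leaving out odd cells or each library group. The correlation step was tested on simulated data. Python 3.11.15, numpy 2.4.6, pandas 2.3.3 and scipy 1.17.1 were used.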

Additional observations from a re-analysis of the deposited data

How the results depend on the processing

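Of 131 values under alternatives, 117 kept a share of cells inside the Wilson interval and within 1.5 times of the reported one or, for the medians of Neurod1 and Zic1, moved by less than the spread between cells. At 200 CPM, 12 cells had Pdgfra, 1 had Olig2 and 4 had 2 or more members. TMMwsp scaling gave 1 cell with high Olig2 and 5 with 2 or more members. Thinning to 1110182 counts left 5 low cells for Olig1, 31 for Pdgfra and 35 for Mbp. A low class of 1 to 2 counts gave 30 cells for Pdgfra and 35 for Mbp. When single library groups were omitted, low cells ran from 5 (without library group 1) to 12 for Olig1 and from 1 (without library group 2) to 6 for Olig2, and high Olig2 cells from 1 (without library group 2 or 4) to 2. Over all alternatives, high cells numbered 2 to 4 for Olig1, 1 to 3 for Olig2, 12 to 23 for Pdgfra and 15 to 20 for Mbp. The median of Neurod1 in cells with a high member ran from 1362 to 1802 CPM and that of Zic1 from 96.7 to 245 CPM, the latter without library group 1.

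No paired analysis was possible because no result came from a test and the labels give no conditions. The shares of cells describe these 109 wells. Low counts depended on depth, as the thinned values show.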

Other observations

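PDGF ligands were seen in few cells. Pdgfa, which encodes the A chain that activates PDGFRA, had counts in 36 of 109 cells and was high in 4. Its highest value, 1093 CPM, was in cell 4 of library group 1, which had 4 Pdgfra counts, and cell 11 of library group 3, with the most Pdgfra, had 0 Pdgfa counts. In cell 11 of library group 1, however, both were high, with Pdgfra at 7716 CPM and Pdgfa at 175 CPM (443 counts). Pdgfb had counts of 1 to 5 in all 28 cells in which it was seen, and Pdgfc was seen in 6 cells and high in 0. Among genes of the bHLH partner E proteins, Tcf4 was high in 108 of 109 cells, including all cells with a high member. Tcf12 was high in 39 cells and reached its highest value, 6870 CPM, in cell 11 of library group 3. Of the Id genes, which encode inhibitors of bHLH factors, Id2 was high in 78 cells. Id2 (10707 CPM), Id3 (1189 CPM) and Id4 (366 CPM) were highest in cell 12 of library group 6, the cell with Olig1 and astroglial genes. Among the 3 cells with a wide set of oligodendrocyte genes, Id2 ran from 2 to 37 counts.

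Cell 17 of library group 2, with Pdgfra at 2914 CPM and Mbp at 1337 CPM, had the highest Atoh1 value of all cells (1043 CPM), a transcription factor of dividing GCPs, with Neurod1 at 162 CPM and 0 Zic1 counts. Microglial genes were scarce outside the deep wells. C1qa and Tyrobp had their highest values, 306 and 418 CPM, in cell 16 of library group 5, which had Mbp at 130 CPM. Of the neurons other than granule cells, Pax2, a gene of interneuron precursors, was high in 6 cells, and a high member was found in 0 of them. Other genes of such neurons did occur with a high member, as Car8 did at 142 CPM in cell 7 of library group 4. Among all cells, 35 had a high member and 74 did not. Of the 7 listed genes of these neurons, none was high in 32 of the 35 and in 56 of the 74. The 6 cells with high Pax2 are few against the 35 and 74, and whether Pax2 and the members exclude each other was not tested.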
